A study of Mus musculus with 11 samples.

Results

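The 9 genes described here encode interferon-inducible GTPases of mouse. Gbp2, Gbp3, Gbp6 and Gbp7 are guanylate-binding proteins (GBPs), Irgm1, Irgm2, Igtp and Iigp1 are immunity-related GTPases (IRGs), and Gvin1 is a very large inducible GTPase. They were taken by name from a table of 23224 genes. Of the 9, 8 had enough reads to be tested beside 13720 genes in all, and Iigp1 did not.

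RNA was sequenced from 11 libraries of colon cancer organoids, which are cultured balls of epithelial cells, and all of them carried the AKP genotype, an abbreviation that the labels do not expand. Naive organoids (3 libraries) had not been in a mouse. C57Bl6 tumour organoids (3 libraries) and RAG2KO tumour organoids (3 libraries) were regrown from primary tumours that naive organoids had formed in the colon of an immunocompetent or an immunodeficient recipient, and they were passaged until the culture held cancer cells alone. RAG2 is needed to make mature T and B cells. The SOX17OE organoids were naive organoids given a lentiviral Sox17 construct, either constitutive (1 library) or doxycycline-inducible (1 library). The labels do not say whether that line received doxycycline. Each line is a single library, and nothing in the labels says whether the 3 libraries of a group came from separate cultures or mice, so p-values measure the spread between these libraries, which may be technical. The titles give each tumour library an identifier of its own, but what it stands for is not stated.

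Interferon gamma binds the receptor Ifngr1 and Ifngr2, and the kinases Jak1 and Jak2 then pass the signal on to the nucleus, where it acts through promoter elements named GAS and ISRE. The transcription factor Irf1 is induced by the signal and binds the ISRE. GBPs and IRGs are among the strongest targets of this pathway in most mouse cells, the gut epithelium included. Their proteins gather on vacuoles that hold microbes, where GBPs open the membrane and help inflammasomes to form. Effector IRGs such as Iigp1 damage the vacuole, and Irgm1, Irgm2 and Igtp (also named Irgm3) hold the effector IRGs inactive on the cell's own membranes.

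The promoters are shown because the genes are grouped by their response to interferon and the files hold no binding data. RefSeq promoters (GRCm38.p6, from 250 bases before to 50 bases after the start) were matched for 6 of the 9 genes. The 120 bases just before the start are printed 5′ to 3′ on the gene's strand, with matches in capitals to the ISRE core (GAAA, any 2 bases, then GAAA) or the GAS core (TTC, any 3 bases, then GAA), both searched on both strands. Gbp2 lies at chr3:142620543-142620662 on the plus strand, Gbp3 at chr3:142559924-142560043 on the plus strand and Gbp7 at chr3:142530216-142530335 on the plus strand. Irgm1 lies at chr11:48871421-48871540 on the minus strand, Irgm2 at chr11:58214857-58214976 on the plus strand and Igtp at chr11:58199436-58199555 on the plus strand.
Gbp2: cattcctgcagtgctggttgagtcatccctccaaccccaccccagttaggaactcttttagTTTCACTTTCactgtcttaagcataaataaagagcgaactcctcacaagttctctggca
Gbp3: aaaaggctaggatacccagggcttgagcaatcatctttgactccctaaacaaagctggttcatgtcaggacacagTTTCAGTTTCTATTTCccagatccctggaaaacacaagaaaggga
Gbp7: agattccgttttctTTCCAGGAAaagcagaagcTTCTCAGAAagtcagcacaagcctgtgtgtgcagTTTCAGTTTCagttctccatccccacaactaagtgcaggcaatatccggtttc
Irgm1: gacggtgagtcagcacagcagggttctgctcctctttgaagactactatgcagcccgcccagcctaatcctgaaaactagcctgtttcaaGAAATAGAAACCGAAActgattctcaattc
Irgm2: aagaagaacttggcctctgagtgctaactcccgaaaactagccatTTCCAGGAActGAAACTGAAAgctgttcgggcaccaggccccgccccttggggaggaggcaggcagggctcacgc
Igtp: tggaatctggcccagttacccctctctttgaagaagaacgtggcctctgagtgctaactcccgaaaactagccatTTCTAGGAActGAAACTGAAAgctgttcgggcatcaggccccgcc

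Each of the 6 genes had an ISRE core match in the full window, against 3.44% of 32851 RefSeq promoters. Gbp7, Irgm2 and Igtp had a GAS core match as well, which 8.3% of promoters had, and 0.454% of promoters had both. The matches lay close to the start. The ISRE core began 59 bases before it in Gbp2, 53 in Gbp7, 64 in Irgm2 and 34 in Igtp. Gbp3 held overlapping ISRE matches that began 45 and 39 bases before the start, and Irgm1 held overlapping ones at 30 and 24. A further RefSeq start of Gbp3 had no match in its window. In Irgm2 and Igtp the GAS core began 11 bases before the ISRE core, and the longest run of letters that their 300-base windows share was 61 bases. Of 10 other listed interferon-inducible GTPases with a RefSeq promoter, 6 had an ISRE core match and 4 a GAS core match. Ifi47, described below, had 0 of either. These matches are letters in a window and not measured binding sites, and a link between them and RNA levels was not tested.

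Reads were counted per gene by RSEM, which divides a read that fits several genes between them, so the deposited values are expected counts and need not be whole. Levels are given as CPM, the count scaled to each library's normalized size. They are not divided by gene length, so levels can be compared between libraries but not between genes. Library totals ran from 14109182 to 22154456. Of the tested genes 4, Gbp2, Gbp3, Gbp6 and Gbp7, were under 10 counts in every naive library. These 4 entered the test only through their level in other groups. Differences are log2 fold changes with their standard error (SE) from edgeR's quasi-likelihood test over all 11 libraries, and genes with an adjusted p under 0.05 (Benjamini-Hochberg, over all genes tested) were called.

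Sequence shared between copies limits some of these values. Of the 50-base stretches in the longest annotated transcript, 99.2% of those in Gvin1 also occur in another gene, 98.3% in its copy Gm4070. For Gbp6 the shared part was 59.7%, mainly with Gm43302 and Gbp10. It was 12.8% for Gbp7, 12.3% for Igtp (shared with Irgm2), 7.3% for Irgm2, 4.79% for Gbp3, 3.19% for Iigp1, 2.07% for Gbp2 and 0 for Irgm1. Values of Gvin1 and Gbp6 are therefore uncertain as to which copy they belong to. The deposited counts of Irgm1 and Irgm2 were whole in 0 of 11 libraries, and those of Igtp in 1. Some of their reads may thus have been divided as well, which for Irgm1 the shared stretches do not show.

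Sox17, the gene overexpressed in the SOX17OE lines, was at 0.0438 to 0.214 CPM in naive organoids, 12.4 to 74.3 CPM in C57Bl6 tumour organoids and 15.4 to 24.4 CPM in RAG2KO tumour organoids. It was at 72.7 CPM in the constitutive line and 4.78 CPM in the inducible line. Markers of colon epithelium summed to 9262 to 11031 CPM in naive, 8578 to 10692 in C57Bl6 tumour and 9342 to 10099 in RAG2KO tumour organoids, and to 6349 and 8028 CPM in the constitutive and inducible lines. Of these 7 markers, 1 was called higher and 3 lower in C57Bl6, 0 and 3 in RAG2KO and 0 and 4 in averaged SOX17OE organoids. The shares of all genes were 9.5% and 5.85%, 16% and 13.3%, and 6.77% and 5.92%. Cdx2 was lower in both tumour groups (log2 -1.21 and -1.29). Markers of T, B and NK cells summed to at most 0.57 CPM in any library, and Ifng itself was at 0 to 2 counts. Of 11 leukocyte and myeloid markers, 10 were in the table and summed to 36.2 to 46.5 CPM in naive, 39.6 to 71.7 in C57Bl6 tumour, 56.2 to 83.5 in RAG2KO tumour, 40.7 in constitutive and 30 CPM in inducible SOX17OE libraries. Of the 5 tested, Cd14 and Csf1r were called higher in RAG2KO tumour organoids and 0 in C57Bl6, where 16% and 9.5% of all genes were. Ptprc, which marks all leukocytes, was at 0 to 18 counts in every library. In the averaged SOX17OE lines Cd14 was called lower than in C57Bl6 (log2 -0.85) and RAG2KO tumour organoids (log2 -1.27). Ptprc was called lower there than in C57Bl6 tumour organoids (log2 -3.99). The 5 endothelial markers summed to 1.19 to 1.45 CPM in naive, 1.29 to 1.72 in C57Bl6 tumour, 1.42 to 4.55 in RAG2KO tumour, 9.97 in constitutive and 3.44 CPM in inducible SOX17OE libraries. Of these 5, 3 were at 0 counts in all naive libraries. Both tested ones, Cdh5 and Vwf, were higher than naive in the constitutive line, a single library (log2 8.88 and 2.33). The 9 fibroblast and muscle markers summed to 0.286 to 0.524 CPM in naive, 0.996 to 2.24 in C57Bl6 tumour, 0.811 to 10.2 in RAG2KO tumour (the most in replicate 2), 6.8 in constitutive and 0.699 CPM in inducible SOX17OE libraries. Of these, Acta2 was called higher in C57Bl6 (log2 2.88, SE 0.66, adjusted p = 0.0171) and RAG2KO tumour organoids (log2 2.89, SE 0.67, adjusted p = 0.0111). The part of these cells in the results was not tested. The share of counts on Rn45s, the ribosomal RNA precursor, was 2.42% to 4.99% in naive, 2.21% to 3.77% in C57Bl6 tumour, 6.56% to 8.54% in RAG2KO tumour, 6.39% in constitutive and 3.71% in inducible SOX17OE libraries.

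**Figure D1:**
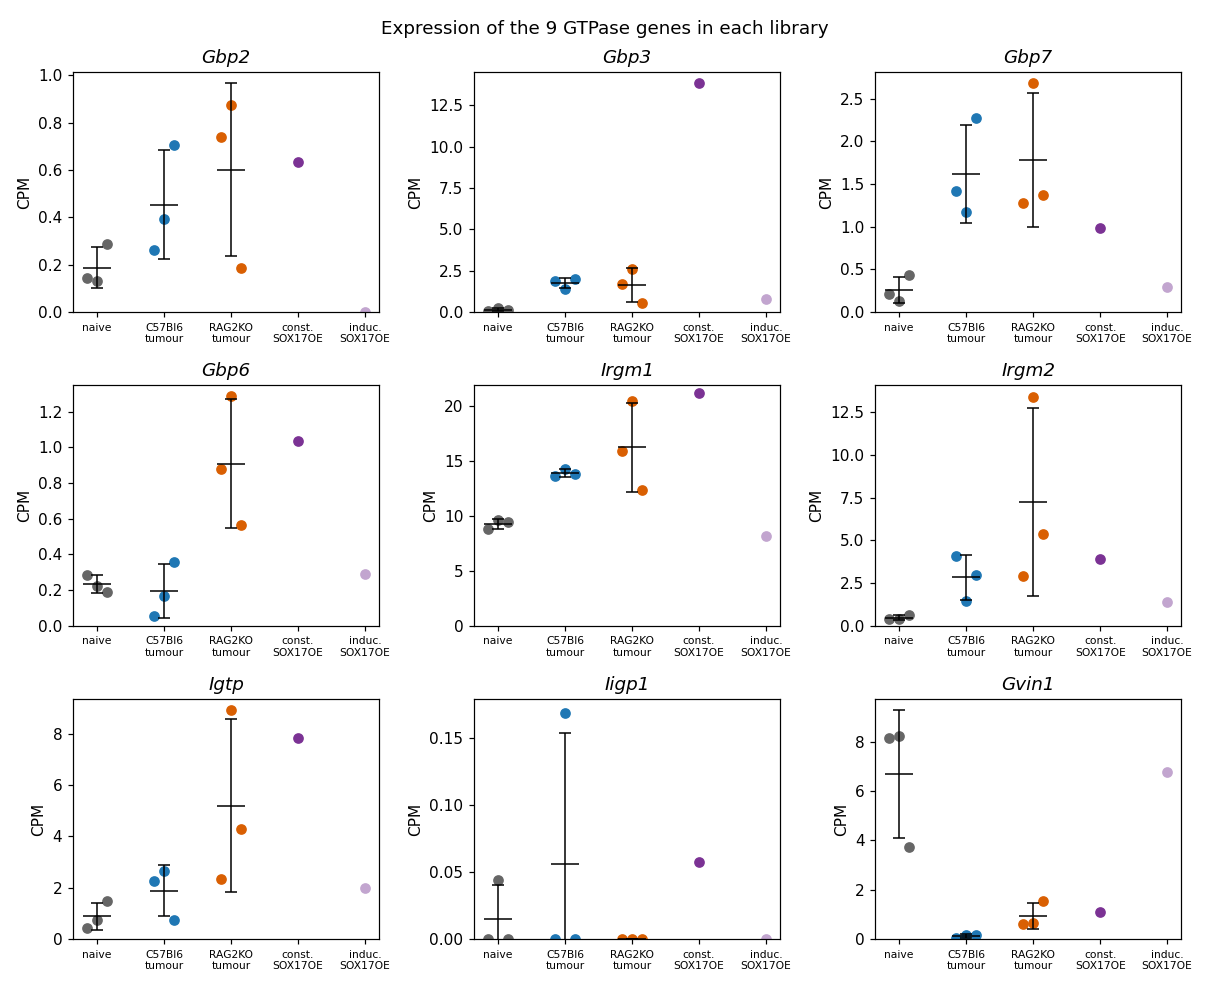
Each panel shows one gene, with a point per library in CPM and, for the groups of 3 libraries, the mean and SD; axes start at 0. Gbp3, Gbp7, Irgm1 and Irgm2 were higher in every tumour library than in any naive library, and Gvin1 was lower in every one. Of all genes tested, 19.9% were higher with no overlap in C57Bl6 and 24.8% in RAG2KO tumour organoids, and 16.9% and 22.4% were lower.

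Organoids regrown from C57Bl6 tumours carried more Gbp3, Gbp7 and Irgm2 and far less Gvin1 RNA than naive organoids. In this comparison 3 of the 8 tested genes were called higher and 1 lower, where 9.5% of all genes tested were called higher and 5.85% lower. Organoids from RAG2KO tumours had 5 genes called higher, Gbp3, Gbp7, Irgm1, Irgm2 and Igtp, and again Gvin1 lower, against 16% and 13.3% of all genes. Gbp2, Gbp3, Gbp6 and Gbp7 were under 10 counts in every naive library and entered the test only through other groups. A lower call was hardly open to them, so these counts and the medians are descriptive. The median log2 difference of the 8 genes was 1.15 in C57Bl6 and 2.24 in RAG2KO tumour organoids, and that of all genes tested was 0.02 in both. Both comparisons use the same 3 naive libraries. Without naive replicate 1 or naive replicate 2 the C57Bl6 count was 1 higher and 1 lower. In bulk RNA a larger share of expressing cells and more RNA per cell cannot be told apart.

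Gbp3 showed the clearest rise among the GBPs. It was at 0.071, 0.263 and 0.095 CPM in the naive libraries, 1.89, 1.4 and 1.97 CPM in the C57Bl6 tumour libraries and 1.69, 2.63 and 0.561 CPM in the RAG2KO tumour libraries. No tumour library reached down to the naive range. Of all genes tested, 19.9% were likewise higher with no overlap in C57Bl6 and 24.8% in RAG2KO tumour organoids. Gbp3 rose 11.1-fold in C57Bl6 tumour organoids (log2 3.48, SE 0.65, adjusted p = 0.00641) and 10.3-fold in RAG2KO tumour organoids (log2 3.37, SE 0.65, adjusted p = 0.00531). These folds rest on naive counts of 1, 6 and 2.

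Gbp7, which lies in the same chromosome 3 cluster as Gbp2 and Gbp3, was at 0.214, 0.131 and 0.429 CPM in naive organoids. It was at 1.42, 1.18 and 2.27 CPM in C57Bl6 tumour and 1.28, 2.69 and 1.37 CPM in RAG2KO tumour organoids, again with no overlap. It rose 6.12-fold in C57Bl6 (log2 2.61, SE 0.58, adjusted p = 0.0142) and 6.72-fold in RAG2KO tumour organoids (log2 2.75, SE 0.58, adjusted p = 0.00784). The C57Bl6 call for Gbp7 was lost when naive replicate 1 or 2 was left out (adjusted p = 0.066 and 0.069).

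Gbp2, a GBP that coats vacuoles of Toxoplasma, stayed at few reads. Its counts were 2, 3 and 6 in naive, 5, 7 and 13.99 in C57Bl6 tumour and 11, 15 and 3 in RAG2KO tumour libraries. In CPM the naive range of 0.131 to 0.286 overlapped with both the C57Bl6 (0.262 to 0.707) and the RAG2KO tumour range (0.187 to 0.876), and neither difference passed the test (log2 1.24, SE 0.75, adjusted p = 0.298 in C57Bl6 and log2 1.64, SE 0.75, adjusted p = 0.123 in RAG2KO tumour organoids).

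Gbp6 belongs to the chromosome 5 cluster of GBPs and shares most of its sequence with neighbours there. It was at 0.286, 0.219 and 0.191 CPM in naive and 0.052, 0.168 and 0.354 CPM in C57Bl6 tumour organoids, which overlap. In RAG2KO tumour organoids it was at 0.876, 1.29 and 0.561 CPM, above all of those. Against naive the RAG2KO difference of Gbp6 missed the threshold (log2 1.96, SE 0.67, adjusted p = 0.0509), and the C57Bl6 difference was log2 -0.24 (SE 0.73, adjusted p = 0.865).

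Irgm1, the regulatory IRG that is also tied to autophagy, was at 8.79, 9.64 and 9.49 CPM in naive, 13.6, 14.3 and 13.8 CPM in C57Bl6 tumour and 15.9, 20.5 and 12.4 CPM in RAG2KO tumour organoids. Both tumour groups lay above the naive libraries. Irgm1 rose 1.75-fold in RAG2KO tumour organoids (log2 0.80, SE 0.19, adjusted p = 0.0121). In C57Bl6 tumour organoids the difference of Irgm1 was log2 0.58 (SE 0.19, adjusted p = 0.0657), which did not pass.

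Irgm2 was at 0.357, 0.394 and 0.62 CPM in naive organoids, 4.09, 1.46 and 2.98 CPM in C57Bl6 tumour organoids and 2.9, 13.4 and 5.36 CPM in RAG2KO tumour organoids. The highest value was that of RAG2KO replicate 2, the library with the most fibroblast marker reads of its group. Irgm2 rose 6.08-fold in C57Bl6 (log2 2.60, SE 0.63, adjusted p = 0.0211) and 15.5-fold in RAG2KO tumour organoids (log2 3.95, SE 0.65, adjusted p = 0.00243). Leaving out naive replicate 1 or 2 or C57Bl6 replicate 1 ended the C57Bl6 call of Irgm2 (adjusted p = 0.084, 0.086 and 0.052).

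Igtp, the neighbour of Irgm2 on chromosome 11, was at 0.429, 0.745 and 1.48 CPM in naive and 2.25, 2.64 and 0.758 CPM in C57Bl6 tumour organoids, so that these groups overlapped. It was at 2.36, 8.93 and 4.3 CPM in RAG2KO tumour organoids, all above naive. Igtp rose 5.76-fold in RAG2KO tumour organoids (log2 2.53, SE 0.65, adjusted p = 0.017), a call that ended without naive replicate 1 or 2 or RAG2KO replicate 2 (adjusted p = 0.057, 0.070 and 0.062). In C57Bl6 tumour organoids Igtp differed by log2 1.06 (SE 0.64, adjusted p = 0.299). Iigp1, the effector IRG, was at 0 to 3 counts in every library and gave no test.

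All 6 RAG2KO calls were lost when the Rn45s share entered the model, with adjusted p of 0.103 to 0.300. The log2 differences with that term were 3.49 for Gbp3, 3.17 for Gbp7, 0.94 for Irgm1, 2.996 for Irgm2, 3.26 for Igtp and -3.62 for Gvin1. The share was higher in every RAG2KO tumour library than in any naive one, so it cannot be told apart from the recipient. The C57Bl6 tumour libraries, whose Rn45s share lay in or under the naive range, kept 4 calls with that term.

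Gvin1 went the other way from the GBPs and IRGs. It was at 8.15, 8.24 and 3.72 CPM in naive organoids, 0.052, 0.168 and 0.152 CPM in C57Bl6 tumour organoids and 0.607, 0.642 and 1.56 CPM in RAG2KO tumour organoids. The 3 groups did not overlap. Against naive, 16.9% of all genes tested were lower with no overlap in C57Bl6 and 22.4% in RAG2KO tumour organoids. Gvin1 was 51.3-fold lower in C57Bl6 (log2 -5.68, SE 0.61, adjusted p = 4.06e-04) and 7.1-fold lower in RAG2KO tumour organoids (log2 -2.83, SE 0.50, adjusted p = 0.00351).

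The other tested copies of the Gvin1 cluster on chromosome 7, Gm4070, Gm17757, Gm8979, Gm8989 and Gm4759, followed Gvin1. With Gvin1 they make 6 genes, all called lower in C57Bl6 (log2 -8.01 to -4.71) and in RAG2KO tumour organoids (log2 -3.08 to -1.92). Because the copies share sequence, and so reads, these calls are not independent. In RAG2KO tumour organoids the calls of Gm8979 (log2 -1.92, adjusted p = 0.0169) and Gm17757 (log2 -2.44, adjusted p = 0.0176) ended without naive replicate 1 or 2 (adjusted p = 0.0598 and 0.0626 for Gm8979, 0.0505 and 0.0643 for Gm17757). The reads of Gvin1, Gm4070, Gm8979 and Gm17757 were summed, so that their division among these rows does not matter. Gm8989 and Gm4759 were not in the sum, and 75.1% of the 50-base stretches in Gm8979 also occur in Gm8989. The sum fell in C57Bl6 (log2 -5.74, SE 0.58, adjusted p = 4.15e-04) and RAG2KO tumour organoids (log2 -2.37, SE 0.47, adjusted p = 0.00676). The 10 nearest tested genes, 5 on each side, lay at log2 -1.31 to 5.05 in C57Bl6 and -1.40 to 5.17 in RAG2KO tumour organoids. Of these 10, 2 were called higher and 0 lower in C57Bl6, and 3 and 0 in RAG2KO tumour organoids. The shares of all genes were 9.5% and 5.85%, and 16% and 13.3%. Such shares leave few lower calls to find among 10 genes. The median difference of all chromosome 7 genes from naive was between -0.01 and 0.08 in every library.

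**Figure D2:**
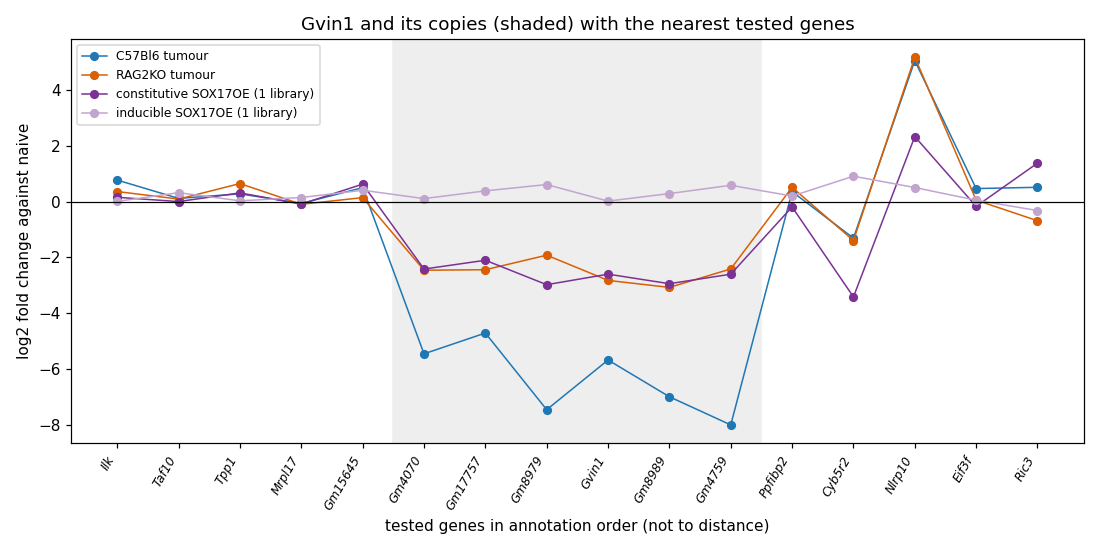
Log2 fold change against naive (vertical axis) for Gvin1 and its tested copies (shaded) and the 5 nearest tested genes on each side in annotation order, one line per group. The 6 shaded genes lie at -8.01 to -4.71 in C57Bl6 and -3.08 to -1.92 in RAG2KO tumour organoids, and the inducible line stays at 0.01 to 0.61.

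Compared directly, RAG2KO tumour organoids had more Gbp6 and Gvin1 than C57Bl6 tumour organoids. These were 2 of the 8 genes, both higher, where 11.8% of all genes tested were called higher and 12.2% lower. Gvin1 was 7.22-fold higher (log2 2.85, SE 0.62, adjusted p = 0.0117), with an adjusted p of 0.079 by limma voom. Its summed copies were also higher (log2 3.37, SE 0.56, adjusted p = 0.00496). Gbp6 was 4.59-fold higher (log2 2.20, SE 0.68, adjusted p = 0.0407), and this call ended on leaving out any one of 8 libraries, namely each naive and each RAG2KO library and C57Bl6 replicates 1 and 2 (adjusted p = 0.051 to 0.104). With the Rn45s share in the model neither call held, at log2 1.83 for Gvin1 (adjusted p = 0.686) and log2 2.58 for Gbp6 (adjusted p = 0.680). Irgm2 (log2 1.35, SE 0.56, adjusted p = 0.103) and Igtp (log2 1.47, SE 0.61, adjusted p = 0.104) did not pass. The median of the 8 genes was 0.87, against -0.00 for all genes.

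The constitutive SOX17OE line had more Gbp3, Irgm1, Irgm2 and Igtp RNA than naive organoids, and the inducible line gave no called difference. Gbp3 reached 13.8 CPM in the constitutive line, 240 counts, and 0.816 CPM in the inducible line, 14 counts. Its naive counts were 1, 6 and 2, on which its folds against naive rest. Gbp3 entered the test only through groups other than naive, so a lower call was hardly open to it. Irgm1 was at 21.3 CPM in the constitutive and 8.16 CPM in the inducible line, the highest and the lowest of all 11 libraries. Irgm2 was at 3.92 and 1.4 CPM and Igtp at 7.84 and 1.98 CPM, in the same order.

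With the lines averaged, 1 of the 8 genes was called against naive, Gbp3 (log2 4.41, SE 0.70, adjusted p = 0.00671), where 6.77% of all genes were called higher and 5.92% lower. Without the constitutive library Gbp3 lost the call (adjusted p = 0.196). Irgm2 (log2 2.32, SE 0.68, adjusted p = 0.0502) and Igtp (log2 2.12, SE 0.69, adjusted p = 0.0699) missed the threshold.

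The constitutive line alone, 1 library assumed to vary like the others, had 4 of the 8 genes called higher and 0 lower, against 7.23% and 5.04% of all genes. These were Gbp3 (87.5-fold, log2 6.45, SE 0.75, adjusted p = 0.00131), Irgm1 (2.28-fold, log2 1.19, SE 0.25, adjusted p = 0.0153), Irgm2 (8.37-fold, log2 3.07, SE 0.77, adjusted p = 0.0296) and Igtp (8.66-fold, log2 3.11, SE 0.78, adjusted p = 0.030). Irgm2 lost this call without any one naive library (adjusted p = 0.057 to 0.091), and Igtp without naive replicate 1 or 2 (adjusted p = 0.073 and 0.096). With the Rn45s share in the model Gbp3 kept its call (adjusted p = 0.0418), and Irgm1, Irgm2 and Igtp did not (log2 1.30, 2.33 and 3.68, adjusted p = 0.117, 0.358 and 0.183). Gvin1, at 1.1 CPM, differed by log2 -2.60 (SE 0.77, adjusted p = 0.0538). Gbp6 at 1.04 CPM (log2 2.15, SE 0.84, adjusted p = 0.121) and Gbp7 at 0.98 CPM (log2 1.89, SE 0.75, adjusted p = 0.125) did not pass either.

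In the inducible line 0 of the 8 genes were called by edgeR, against 0.525% of all genes higher and 0.131% lower, and 1 of the 8, Gbp3, had an unadjusted p under 0.05 (log2 2.38, SE 0.85, edgeR adjusted p = 0.185). Gvin1 was at 6.76 CPM, within the naive range (log2 0.01, SE 0.63). Gbp2 was at 0 counts there, which allows up to 3 counts, while the naive libraries had 2 to 6, so no fold is given here. Set against each other, the lines had 0 of 8 genes called by edgeR, where 0.284% of all genes were called, and 2 by DESeq2. This compares 1 library with 1 library, with the spread taken from the other groups, and does not measure the spread within either line. Gbp3 differed by log2 4.07, constitutive minus inducible (SE 1.01, edgeR adjusted p = 0.156, DESeq2 adjusted p = 0.0094) and Irgm1 by log2 1.38 (SE 0.33, edgeR adjusted p = 0.147, DESeq2 adjusted p = 0.0211).

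**Figure D3:**
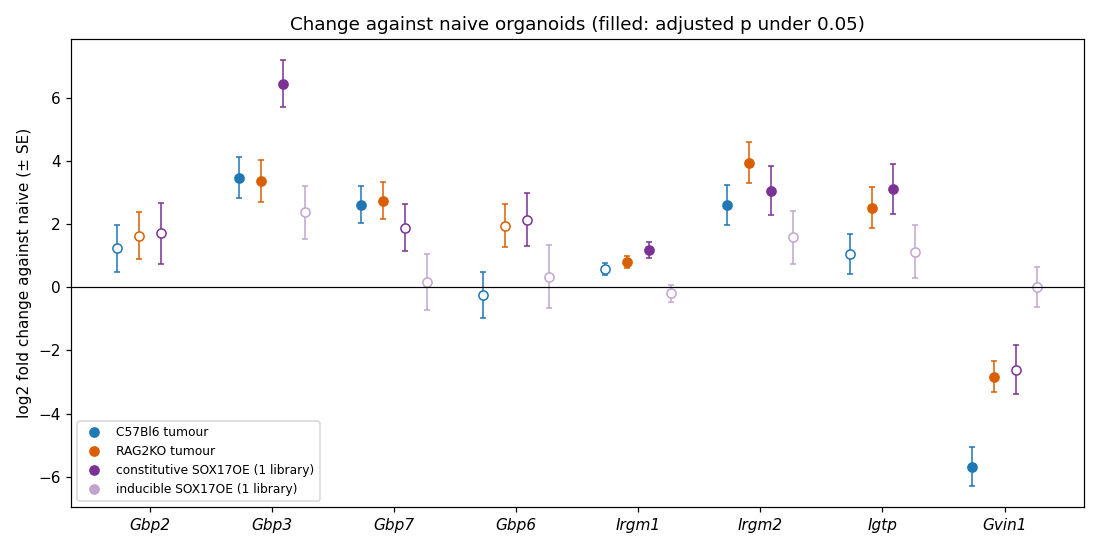
Log2 fold change against naive with its SE (vertical axis) for the 8 tested genes; filled points have an adjusted p under 0.05 and Gbp2 in the inducible line, at 0 counts, is left out. Gbp3 reaches 6.45 in the constitutive line and Gvin1 -5.68 in C57Bl6 tumour organoids.

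Against C57Bl6 tumour organoids the SOX17OE lines had more Gvin1. Averaged, they had 1 of the 8 genes called against C57Bl6 tumour organoids, Gvin1 (20.9-fold higher, log2 4.39, SE 0.64, adjusted p = 0.00192), where 12.1% of all genes were called higher and 15.1% lower. Each line alone gave the same call for Gvin1, by log2 3.08 (SE 0.76, adjusted p = 0.0246) for the constitutive line, where 7.94% of all genes were called higher, and by log2 5.70 (SE 0.69, adjusted p = 0.00175) for the inducible line, where 7.38% were. The constitutive line also had more Gbp3 than C57Bl6 tumour organoids (log2 2.97, SE 0.65, adjusted p = 0.0158). Against RAG2KO tumour organoids 0 of 8 genes were called, where 3.56% of all genes were, and 4 of the 8, Gbp2, Gbp7, Irgm2 and Gvin1, had an unadjusted p under 0.05. The averaged lines differed from RAG2KO tumour organoids in Gvin1 by log2 1.53 (SE 0.54, adjusted p = 0.166), and the constitutive line by log2 0.22 (SE 0.70, adjusted p = 0.941), its 1.1 CPM lying within the RAG2KO range. The inducible line alone had more Gvin1 than RAG2KO tumour organoids (log2 2.84, SE 0.60, adjusted p = 0.0493), where 0.627% of all genes were called higher.

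Summed over all GBP genes in the table, expression was 1.93, 1.45 and 1.91 CPM in naive, 4.14, 5.78 and 7.22 CPM in C57Bl6 tumour, 7.89, 15.2 and 6.67 CPM in RAG2KO tumour, 23.9 CPM in constitutive and 3.56 CPM in inducible SOX17OE libraries. Every other library lay above the naive ones. Gbp3 alone held 240 of the 413.97 summed counts in the constitutive line. In C57Bl6 tumour organoids Gbp3 averaged 1.75 and Gbp7 1.62 CPM, while Gbp6 (log2 -0.24) and Gbp8 (log2 -0.51) were not called. The sum therefore does not show a rise of each GBP. The sum rose in C57Bl6 (log2 1.70, SE 0.36, adjusted p = 0.0111), RAG2KO (log2 2.50, SE 0.36, adjusted p = 0.0014) and SOX17OE organoids (log2 2.39, SE 0.39, adjusted p = 0.00755). The C57Bl6 call ended without naive replicate 2 (adjusted p = 0.057) and the SOX17OE call without the constitutive line (adjusted p = 0.304).

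The IRG sum depended on Irgq, a divergent relative that held 325.5 to 1012 counts and was not called against naive in either tumour group or the averaged lines (adjusted p = 0.391, 0.143 and 0.219). With Irgq, none of these 3 comparisons with naive was called (log2 0.26, 0.43 and -0.01, adjusted p = 0.445, 0.147 and 0.983 for C57Bl6, RAG2KO and SOX17OE). Without it, a choice made after seeing the values, the sum was 11.3, 12.1 and 13.4 CPM in naive, 30.6, 29.4 and 27.4 CPM in C57Bl6 tumour, 33.7, 52.8 and 32 CPM in RAG2KO tumour, 39.1 CPM in constitutive and 12.7 CPM in inducible SOX17OE libraries. The inducible line alone stayed within the naive range. In C57Bl6 tumour organoids Irgm1, at a mean of 13.9 CPM against 9.31 in naive, was not called (adjusted p = 0.0657). Igtp was not called there either (adjusted p = 0.299), while Irgm2 and Ifi47 (log2 5.42) were called higher. The sum without Irgq therefore does not show a rise of each IRG. The sum without Irgq rose in C57Bl6 (log2 1.25, SE 0.20, adjusted p = 0.00268), RAG2KO (log2 1.68, SE 0.20, adjusted p = 5.51e-04) and SOX17OE organoids (log2 0.86, SE 0.21, adjusted p = 0.0308), the last of which ended without any one naive library (adjusted p = 0.065 to 0.097) or the constitutive line (adjusted p = 0.947).

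Of 20 further GBP and IRG genes in the table, 12 were tested. In C57Bl6 tumour organoids 1 was called higher and 3 lower, in RAG2KO tumour organoids 3 and 3, and in the averaged SOX17OE lines 2 and 0. Of all genes, 9.5% and 5.85%, 16% and 13.3%, and 6.77% and 5.92% were called higher and lower in these comparisons. The 3 lower ones were the Gvin1 copies Gm4070, Gm8979 and Gm17757. Without naive replicate 2 the RAG2KO counts were 1 and 1, without naive replicate 1 they were 3 and 1, and the SOX17OE counts were 0 and 0 without any one naive library, RAG2KO replicate 1 or 3, or the constitutive line. Ifi47, an IRG also known as Irgd, was the one higher in both tumour groups. It had 2, 3 and 5 counts in naive, 163, 137 and 135 in C57Bl6 tumour, 161, 113 and 114 in RAG2KO tumour, 45 in constitutive and 2 in inducible SOX17OE libraries. With under 10 counts in every naive library, Ifi47 entered the test only through other groups. A lower call was hardly open to it, and its folds rest on few naive reads. Its rise was log2 5.42 (SE 0.38) in C57Bl6 and log2 5.51 (SE 0.38) in RAG2KO tumour organoids, and log2 3.86 (SE 0.45, adjusted p = 0.0013) in the constitutive line. Gbp4 rose in RAG2KO tumour organoids (log2 2.95, SE 0.70, adjusted p = 0.0122, ended without naive replicate 2 at 0.0574) and in the averaged SOX17OE lines (log2 2.75, SE 0.74, adjusted p = 0.0392, ended without any one naive library, RAG2KO replicate 1 or 3, or the constitutive line, at 0.0504 to 0.313). Gbp5, the other higher gene of the lines, had 10 and 4 counts there and 0 to 1 in every other library. It entered the test only through the SOX17OE libraries, so no fold is given, and its call (adjusted p = 0.0495) ended without any one naive or RAG2KO library or C57Bl6 replicate 2 or 3 (adjusted p = 0.0513 to 0.151).

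**Figure D4:**
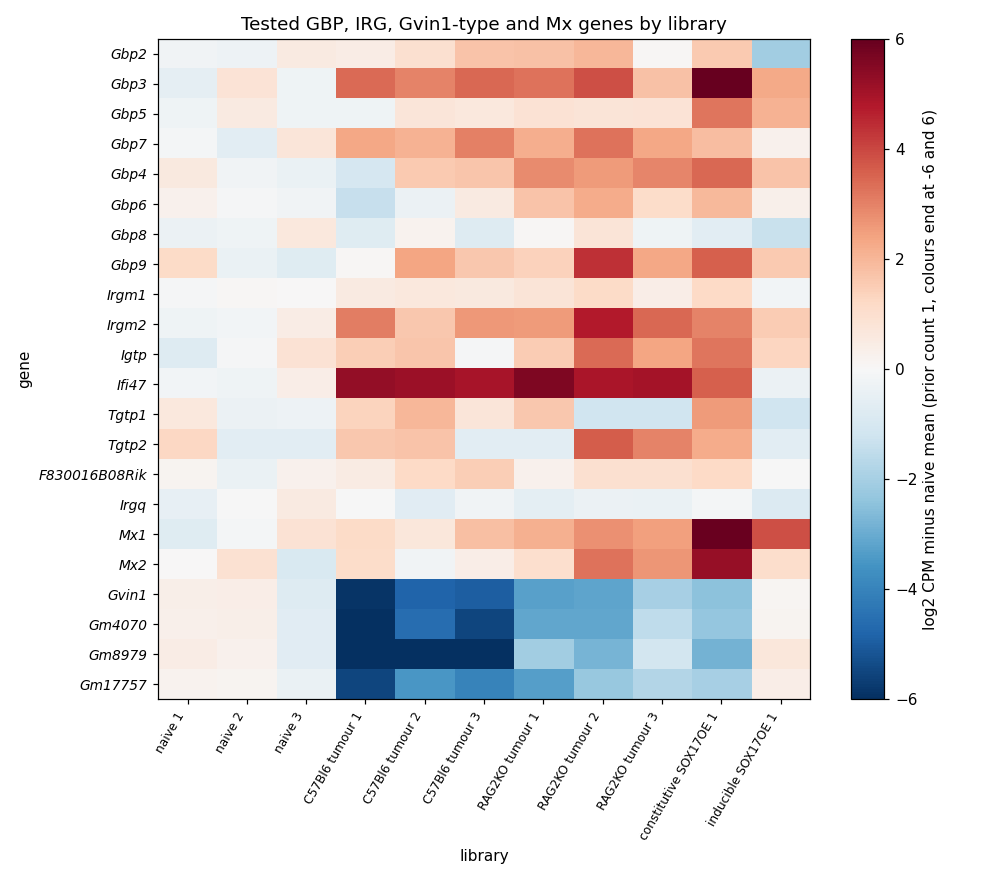
Log2 CPM minus the naive mean (colour, ending at -6 and 6) for the tested GTPase genes in each of the 11 libraries. The GBP and IRG genes are mostly red in the tumour and constitutive libraries, the 4 Gvin1-type genes at the foot are blue there, and in the inducible library Mx1 (3.89) and Gbp3 (2.25) lie highest above naive.

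Mx1 and Mx2 are antiviral GTPases induced by type I interferon. Mx1 averaged 0.443 CPM in naive, 1.04 CPM in C57Bl6 tumour and 2.41 CPM in RAG2KO tumour organoids, and was at 26.9 CPM in the constitutive and 6.59 CPM in the inducible line. It rose in RAG2KO tumour organoids (log2 2.39, SE 0.47, adjusted p = 0.0055) and in the averaged SOX17OE lines (log2 4.85, SE 0.51, adjusted p = 0.0013). Mx2 rose in both as well (log2 2.67, SE 0.78, adjusted p = 0.0284 and log2 3.20, SE 0.86, adjusted p = 0.0392). The RAG2KO call of Mx2 ended without naive replicate 1 or 3 or RAG2KO replicate 2 or 3 (adjusted p = 0.0557 to 0.0938), and its SOX17OE call without any one naive library, C57Bl6 replicate 3, RAG2KO replicate 3 or the constitutive line (adjusted p = 0.0533 to 0.681).

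Among 17 tested genes that carry the interferon gamma signal from receptor to promoter, 2 were called higher and 1 lower in C57Bl6, 5 and 1 in RAG2KO and 3 and 1 in averaged SOX17OE organoids (all genes: 9.5% and 5.85%, 16% and 13.3%, 6.77% and 5.92%), with medians of 0.34, 0.33 and 0.08 on the log2 scale. The C57Bl6 counts were 4 and 1 without RAG2KO replicate 2, and the SOX17OE counts were 1 and 1 without naive replicate 2 or 3 and 0 and 0 without the constitutive line. Irf1, the transcription factor that binds the ISRE, averaged 31.9 CPM in naive, 57.2 CPM in C57Bl6 tumour and 98.8 CPM in RAG2KO tumour organoids. It rose in both (log2 0.84, SE 0.16, adjusted p = 0.0067 and log2 1.63, SE 0.16, adjusted p = 2.32e-04). Irf8, of the same list, was the 1 gene called lower in C57Bl6 tumour organoids (log2 -2.12, SE 0.39, adjusted p = 0.0059).

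The receptor chain Ifngr1 averaged 63.9 CPM (SD 7.09, n = 3) in naive organoids and was at 25.7 CPM in the constitutive and 29.7 CPM in the inducible line, below all 9 other libraries. Its log2 difference was -1.21 (SE 0.17, adjusted p = 0.0043), and without the constitutive library the adjusted p was 0.06. In the tumour organoids, Ifngr1 differed from naive by log2 0.14 (SE 0.15, adjusted p = 0.564) in C57Bl6 and log2 -0.09 (SE 0.15, adjusted p = 0.691) in RAG2KO.

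Of 20 tested genes that interferon gamma induces in other settings, 8 were called higher and 0 lower in C57Bl6, 10 and 2 in RAG2KO and 6 and 2 in averaged SOX17OE organoids (all genes: 9.5% and 5.85%, 16% and 13.3%, 6.77% and 5.92%). The C57Bl6 count was 5 and 0 without naive replicate 2, and the SOX17OE counts were 2 and 1 without naive replicate 2 or 3 and 0 and 0 without the constitutive line. Wars was called lower in the averaged SOX17OE lines (log2 -1.39, SE 0.25, adjusted p = 0.0104). Tapbp, which loads peptides onto MHC class I, rose in C57Bl6 (log2 1.84, SE 0.20, adjusted p = 4.61e-04) and RAG2KO tumour organoids (log2 1.96, SE 0.20, adjusted p = 3.07e-04). Psme1, a proteasome activator subunit, rose in all 3 (log2 1.02, 1.57 and 1.07, SE 0.12, 0.12 and 0.13), although without the constitutive library its SOX17OE call ended (adjusted p = 0.0545). Of 24 genes that mark a type I interferon response, 4 were called higher and 1 lower in C57Bl6, 14 and 0 in RAG2KO and 7 and 0 in averaged SOX17OE organoids, to be read against the same shares. The C57Bl6 counts came to at most 1 and 0 without any one naive library and to 1 and 1 without C57Bl6 replicate 2. The SOX17OE counts were 3 and 0, 2 and 0, 0 and 0 and 13 and 0 without naive replicate 2, naive replicate 3, the constitutive and the inducible line. Between RAG2KO and C57Bl6 tumour organoids 12 of these 24 were called higher and 0 lower, against 11.8% and 12.2% of all genes, Oas1a among them (log2 2.11, SE 0.34, adjusted p = 0.0039), and that count was 5 to 7 without naive replicate 2, C57Bl6 replicate 3 or RAG2KO replicate 2 or 3.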

How the data were processed

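Poly(A) RNA was purified with a PureLink kit and made into libraries with the NEBNext Ultra II Directional kit, per the labels' protocols. Expected counts per gene were deposited in 1 table of 23224 genes. Bowtie, RSEM and the mm9 build are named in the submitters' processing notes, and the sources used here give no version, annotation or strand setting.

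The expected counts were rounded and tested with edgeR 4.0.16 in R 4.3.3 (TMM normalization, filterByExpr with a minimum count of 10, robust quasi-likelihood test, 5 groups), with Benjamini-Hochberg adjustment over 13720 genes. The SE was taken as the absolute log2 fold change over the root of the F statistic. Each SOX17OE line is 1 library and was assumed to vary like the other groups. On simulated counts for C57Bl6 tumour against naive over 13352 genes, 44 of 100 genes changed 2-fold and 81 of 100 changed 8-fold were recovered, with 12 false calls.

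The 9 genes and the lists were chosen with earlier results of these data known. All 9 are reported in each comparison. Of each list the text gives counts and names genes among the called ones with the 3 smallest adjusted p (1 such gene is not reported here), and gene by gene values of Irgq and Ifngr1 in other comparisons were added after the values were seen, as were the IRG sum without Irgq, the constitutive against the inducible line and the fit of naive and tumour libraries alone. Alternatives were size factors of DESeq2 1.42.0 or library totals in place of TMM, other filters, the DESeq2 Wald test, limma 3.58.1 voom with sample weights, only the groups compared, a replicate block, the Rn45s share as a covariate, each line alone and each library left out. Promoter sequences came from RefSeq (GRCm38.p6), a later build than that of the counts, and shared sequence from GENCODE transcripts.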

Additional observations from a re-analysis of the deposited data

Results flagged for a closer look

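The tumour groups differed from each other in 2 of the 8 tested genes, by the direct test of RAG2KO against C57Bl6 tumour organoids in edgeR, where 11.8% of all genes were called higher and 12.2% lower. Gbp6 was higher in RAG2KO tumour organoids by log2 2.20 (adjusted p = 0.0407), in 3 of 3 libraries above all C57Bl6 libraries, and this call ended under 11 of 17 alternatives. Gvin1 was higher by log2 2.85 (adjusted p = 0.0117), again in 3 of 3 libraries, although both groups lay below naive. Of all genes tested, 19.4% were higher with no overlap between these tumour groups.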

How the results depend on the processing

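The counts of the 8 genes called are given here under the alternatives that moved them. Against naive, the C57Bl6 count of 4 was 2 to 5 and the RAG2KO count of 6 was 5 to 7 with single libraries left out, and with the Rn45s share as covariate RAG2KO fell to 0. For RAG2KO against C57Bl6 tumour organoids the count of 2 was 1 with no filter, with 1 CPM required in 3 libraries, with voom, with only the groups compared, and in the fit of naive and tumour libraries with the replicate block or without the block term, 0 with Rn45s, and 1 to 2 with libraries left out. For the SOX17OE lines against naive the count of 1 was 2 with no filter or the 1 CPM filter, 3 with DESeq2 or only the groups compared, 4 with voom or the constitutive line alone, 0 with the inducible line alone, and 0 to 4 with libraries left out. Against C57Bl6 tumour organoids their count of 1 was 2 with voom or the constitutive line alone and 1 to 2 with libraries left out, and against RAG2KO tumour organoids the count of 0 was 1 with the inducible line alone and 0 to 1 with libraries left out. The constitutive line's count of 4 against naive was 7 with voom, 1 with Rn45s and 2 to 5 with libraries left out, and the count of 0 between the lines was 2 with DESeq2. The cause of these moves was not tested.

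Same-numbered libraries did not deviate together (correlations of -0.18 to 0.14, and 2 of 9 libraries were closest to their own number), so the numbers do not pair them. The replicate block moved the RAG2KO against C57Bl6 count to 1, as did that fit without it.

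No called difference changed sign. Among uncalled ones, voom turned Gbp2 (log2 -0.15) and Gbp7 (log2 -0.15) between the tumour groups, and Rn45s turned Gbp3 between them (0.0286) and Irgm1 in the lines against C57Bl6 (0.0129). The constitutive line alone turned Gbp2 (1.71 against naive, 0.47 against C57Bl6, 0.0738 against RAG2KO), Gbp6 (0.19) and Igtp (0.59) against RAG2KO, Irgm1 (0.61 against C57Bl6, 0.39 against RAG2KO) and Irgm2 (0.46 against C57Bl6). The inducible line alone turned Gbp3 (-1.10 against C57Bl6, -0.99 against RAG2KO) and, against naive, Gvin1 (0.0144) and Irgm1 (-0.19). With libraries left out, the ranges that crossed 0 were, on the log2 scale, Gbp6 -1.02 to 0.20 in C57Bl6 against naive, and between the tumour groups Gbp3 -0.65 to 0.30 and Gbp7 -0.29 to 0.46. For the lines against naive they were Gbp2 -4.81 to 1.71, Gvin1 -2.60 to 0.0147 and Irgm1 -0.19 to 1.19. Against C57Bl6 they were Gbp2 -6.05 to 0.47, Gbp3 -1.10 to 2.97, Irgm1 -0.77 to 0.61 and Irgm2 -1.02 to 0.46. Against RAG2KO they were Gbp2 -6.45 to 0.0742, Gbp3 -0.99 to 3.08, Gbp6 -1.62 to 0.19, Igtp -1.39 to 0.59 and Irgm1 -0.996 to 0.39. The low ends of the Gbp2 ranges of the lines come from leaving out the constitutive library. They rest on the inducible library alone, where Gbp2 was at 0 counts, so their size is not a measured fold.

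Depth limits Gbp2, Gbp6 and Iigp1 most, with totals of 76.99, 91.81 and 5 counts over all 11 libraries. Each line is a single library, so line and construct cannot be told apart.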

Other observations

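Genes whose products work with GBPs and IRGs were called in both directions in C57Bl6 tumour organoids, and in RAG2KO tumour organoids more were called higher than lower. Of 27 tested, 4 were called higher and 4 lower in C57Bl6, 11 and 1 in RAG2KO and 4 and 1 in averaged SOX17OE organoids (all genes: 9.5% and 5.85%, 16% and 13.3%, 6.77% and 5.92%), with medians of 0.04, 0.31 and 0.16 on the log2 scale. The C57Bl6 counts were 1 and 2, 1 and 1 and 2 and 1 without naive replicates 1, 2 and 3, 2 and 3 without C57Bl6 replicate 1 or RAG2KO replicate 3, and 3 and 2 without C57Bl6 replicate 2. The SOX17OE counts were 2 and 0 without any one naive library, 0 and 0 without the constitutive line and 8 and 1 without the inducible line. Lgals9, a galectin that binds damaged membranes, rose in C57Bl6 (log2 3.30, SE 0.25) and RAG2KO tumour organoids (log2 3.64, SE 0.25) and in the averaged lines (log2 3.01, SE 0.26, adjusted p = 0.0728 without the constitutive library). Casp1, the inflammasome protease, fell by 3.73 on the log2 scale in C57Bl6 tumour organoids (SE 0.57, adjusted p = 0.0024) and was higher in RAG2KO than in C57Bl6 tumour organoids (log2 3.75, SE 0.57, adjusted p = 0.0035). Map1lc3b, which encodes an LC3 protein of the autophagosome, rose in RAG2KO tumour organoids (log2 0.99, SE 0.14, adjusted p = 0.0011).

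As a description over the 11 libraries, which share groups and depth, the 8 tested genes were compared by the Pearson r of their log2 CPM. Over 28 pairs r ran from -0.85 to 0.89 with a median of 0.55, and the 21 pairs without Gvin1 had a lowest r of 0.36 and a median of 0.67. The tested gene most like Gvin1 was its copy Gm4070 (r = 0.994). Those most like Gbp3, Gbp7, Irgm1, Irgm2 and Igtp were Rhoj (r = 0.975), Cdk17 (r = 0.964), Il23a (r = 0.969), Pacsin3 (r = 0.981) and Lrrc8e (r = 0.931), and those most like Gbp2 and Gbp6 were Rassf1 (r = 0.920) and Eme2 (r = 0.965). With this many genes and few libraries, high values arise for some gene in any case.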
